A study of Mus musculus with 3 samples.

Results

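ATP-dependent chromatin remodelers were taken as 38 genes picked by symbol out of 55536 annotated genes, of which 22028 were protein-coding. The rule used no measured value, but earlier results of these data were known when the genes were chosen. They comprised 17 genes of the SWI/SNF type, 7 of the ISWI type, 8 of the CHD type and 3 of the INO80 type. Atrx, Smarcad1 and Smarcal1, ATPases of the same superfamily that belong to none of these, were kept as 3 other SNF2 genes. RNA of the chromatin fraction, which is rich in transcripts still attached to the template, was sequenced after depletion of ribosomal RNA in 3 libraries that form 1 group. The cells were primary bone-marrow-derived macrophages of the C57BL/6J mouse strain, grown from marrow in culture, and the labels name no transgene, allele or other agent. All 3 libraries came from cells given 100 ng/ml Lipid A, the Toll-like receptor 4 ligand of bacterial lipopolysaccharide, for 12 h, then kept without it for 12 h, then given 100 ng/ml Lipid A again for 40 min. No untreated or once-treated group was analysed here, so the levels below describe a single state and show no response to Lipid A. The labels number the libraries as biological replicates 1, 2 and 3 but assign them 1 strain-level donor and give no age or sex, so the spread between them measures only how these samples differ.

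Remodelers use the energy of ATP to slide, evict or exchange nucleosomes. SWI/SNF complexes (BAF and PBAF) open chromatin at enhancers and promoters, and in macrophages they are needed for induction of many lipopolysaccharide-responsive genes. ISWI complexes space nucleosomes evenly. CHD enzymes carry chromodomains that bind histone tails, and CHD3 and CHD4 are the motor of the NuRD deacetylase complex. INO80, SRCAP and EP400 act on the histone variant H2A.Z, and ATRX deposits histone H3.3 together with DAXX.

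Replicates 1, 2 and 3 had totals of 13802716, 17187524 and 16502809 expected counts over the annotated genes. The RNA input named in the labels was 1 µg, 250 ng and 500 ng in the same order. All 10 macrophage markers were detected in the top decile of coding genes, with a summed level of 1157, 1289 and 1203 TPM, a level corrected for transcript length and given relative to the table total. Of the lists for other cells, 0 of 8 neutrophil and 0 of 5 natural killer cell markers were detected, 1 of 8 T cell markers (Cd4), 1 of 6 B cell markers (Cd22), 3 of 6 fibroblast and 3 of 5 endothelial markers. The defining markers Cd3e, Ncr1 and Ly6g were at 0 counts in all 3 libraries. The table made from the reads detected more of these markers, namely 1 of 8 neutrophil, 4 of 8 T cell, 2 of 5 natural killer cell, 2 of 6 B cell and 5 of 6 fibroblast markers. Ncr1 and Ly6g were at 0 there too and Cd3e had 1.44 counts on average, but Cd3d, at 0 counts in the gene tables, was given 475. The endothelial list summed to 38.2, 29.8 and 54.5 TPM, most of it from Vwf at 28.7, 24.6 and 50.3 TPM, and its part in the levels below was not tested.

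To show the start regions of paralogs that were transcribed side by side or with a silent partner, the promoters of both ISWI ATPase genes and both SWI/SNF ATPase genes are given from RefSeq (GRCm38.p6). Each runs from 250 bases before the start to 50 bases after it, written 5′ to 3′ on the gene's strand with CG dinucleotides in capitals. They lie at chr8:80739410-80739709 on the minus strand (Smarca5), chrX:47892564-47892863 on the minus strand (Smarca1), chr9:21615919-21616218 on the plus strand (Smarca4) and chr19:26604910-26605209 on the plus strand (Smarca2).
Smarca5: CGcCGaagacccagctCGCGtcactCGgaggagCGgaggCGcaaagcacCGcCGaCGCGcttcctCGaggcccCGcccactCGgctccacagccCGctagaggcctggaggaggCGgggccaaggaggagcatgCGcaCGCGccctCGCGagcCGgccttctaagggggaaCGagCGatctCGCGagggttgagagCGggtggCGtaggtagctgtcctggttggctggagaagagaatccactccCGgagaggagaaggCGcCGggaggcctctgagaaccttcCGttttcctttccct
Smarca1: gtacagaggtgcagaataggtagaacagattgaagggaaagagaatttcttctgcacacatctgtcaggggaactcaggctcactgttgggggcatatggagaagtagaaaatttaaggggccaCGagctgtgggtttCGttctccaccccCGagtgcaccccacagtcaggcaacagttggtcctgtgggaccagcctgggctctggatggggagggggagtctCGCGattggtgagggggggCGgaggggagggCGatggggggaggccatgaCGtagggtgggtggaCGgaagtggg
Smarca4: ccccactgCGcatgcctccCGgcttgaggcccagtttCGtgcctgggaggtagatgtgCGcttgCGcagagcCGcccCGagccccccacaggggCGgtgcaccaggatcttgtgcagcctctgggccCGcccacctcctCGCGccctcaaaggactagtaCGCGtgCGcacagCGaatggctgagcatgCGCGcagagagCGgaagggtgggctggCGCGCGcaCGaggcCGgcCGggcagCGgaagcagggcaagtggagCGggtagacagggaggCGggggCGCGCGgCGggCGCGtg
Smarca2: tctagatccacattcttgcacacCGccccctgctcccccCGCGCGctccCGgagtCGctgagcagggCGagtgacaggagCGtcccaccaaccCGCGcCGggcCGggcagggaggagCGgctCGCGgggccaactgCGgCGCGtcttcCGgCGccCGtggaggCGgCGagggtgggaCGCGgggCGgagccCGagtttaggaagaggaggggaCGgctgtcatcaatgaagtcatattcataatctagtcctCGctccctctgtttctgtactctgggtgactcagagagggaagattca
The Smarca5 window held 32 CG dinucleotides, that of Smarca4 33 and that of Smarca2 29, whereas that of Smarca1 held 9. Over the 35 promoters found for 31 of the 38 genes the median was 27, against 7 over all 32851 promoters of the same 300 bases, and 32 of the 35 lay above that median. Some genes with high levels lay below the median of the remodelers, with 11 CG for Atrx and 5 for Baz2b, and Baz2b also lay below the median of all promoters. The Baz2b window, at chr2:60125691-60125990, lies inside the gene, whose minus-strand annotation begins at 60209839. That of Smarcd2, at chr11:106267583-106267882, likewise lies inside a minus-strand gene that begins at 106272972. The Smarca1 window printed above also lies inside its gene, whose minus-strand annotation begins at 47892974. The same holds for further windows, those of Smarcd3 and Smarcc1 among them. Starts further upstream in these genes are not covered. Short motifs were searched as exact letters on both strands. TATAAA was present in 5.71% of the remodeler promoters (Baz2b and Smarcd2) and in 13.6% of all promoters, CCAAT in 34.3% and 37.4%, and the ETS core CCGGAAG in 8.57% (Chd8, Smarca2 and Smarcc1) and 8.86%. A match is a run of letters and not a measured binding site.

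As a group the remodeler genes had high chromatin-bound RNA levels. At least 10 counts on average, the limit used for detection, were found for 37 of the 38 genes, against 49.7% of all protein-coding genes. The median of the 38 genes was 33.9 TPM, compared with 0.44 TPM over all coding genes and 7.32 TPM over the detected ones. The top decile of all coding genes, from 28.8 TPM upward, held 23 of the 38 (background 10%). Their median percentile was 91.4 among all coding genes and 83.0 among the 10952 detected coding genes, where the top decile held only 9. In the bulk fraction, a lower level through fewer expressing cells and one through less RNA per cell cannot be told apart. The remodelers took up 0.650%, 0.574% and 0.535% of the counts in annotated genes in replicates 1, 2 and 3.

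**Figure D1:**
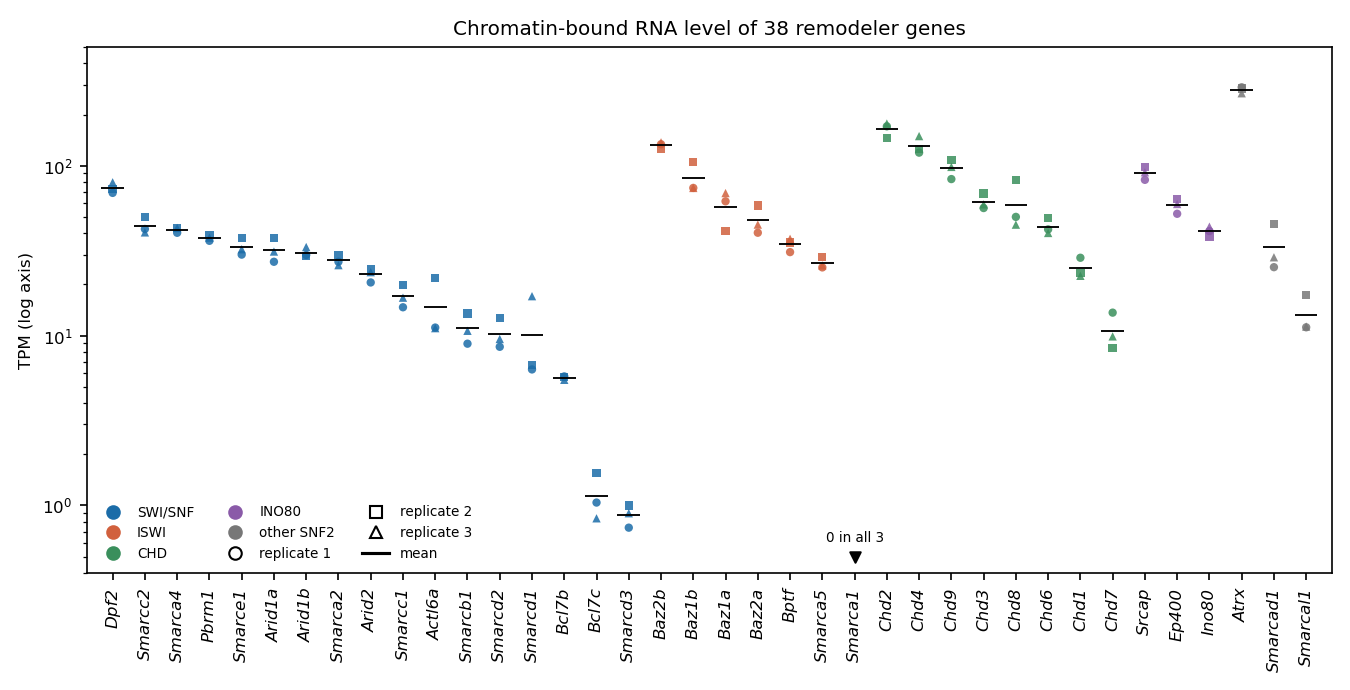
Level of each remodeler gene in TPM on a log axis, with symbols for the 3 libraries, colours for the families and a line at the mean. Atrx stands at the top with 280.3 TPM, the core SWI/SNF subunits spread down to 0.88 TPM, and Smarca1 had 0 counts in all 3 libraries.

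The catalytic subunits of SWI/SNF, the ATPases BRG1 (Smarca4) and BRM (Smarca2), were both transcribed. Smarca4 (chr9:21616169-21704230, plus strand, mm10) measured 40.3, 43.0 and 43.0 TPM in replicates 1, 2 and 3, from 2872, 3262 and 3008 counts. Smarca2 (chr19:26605050-26778322, plus strand) measured 27.2, 29.9 and 26.0 TPM, from 1317, 1500 and 1143 counts. The library ranges did not overlap, and the log2 ratio of Smarca4 to Smarca2 was 0.60 ± 0.11 (SD, n = 3). That order depended on how reads were assigned. In the table made directly from the reads, Smarca2 averaged 56.7 TPM and Smarca4 37.9 TPM, a log2 ratio of -0.58 with Smarca2 higher in all 3 libraries. When only protein-coding transcripts were summed in the gene-table quantification, the ratio was 2.35 in favour of Smarca4. The annotation lists 46 transcripts for Smarca2 and 4 for Smarca4, all 4 of them protein-coding. In Smarca2 just 29.9% of the level lay in coding transcripts and 31.8% in transcripts marked for nonsense-mediated decay, among them the leading Smarca2-202 with 25.6% ± 3.1 (SD, n = 3).

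Core subunits shared by BAF and PBAF had a median of 10.7 TPM over 10 genes, against 32.0 TPM over the 3 genes specific to BAF. SMARCC proteins form the scaffold of the complex. Smarcc2 measured 42.4, 50.1 and 40.5 TPM and Smarcc1 14.7, 19.9 and 16.7 TPM, so that Smarcc2 was 2.59-fold higher with no overlap. The log2 ratio of Smarcc1 to Smarcc2 was -1.38, and -2.25 in coding transcripts alone. Smarce1, which encodes the DNA-bending subunit BAF57, averaged 33.3 ± 4.0 TPM (SD, n = 3). Smarcb1, which encodes the nucleosome-anchoring subunit SNF5, averaged 11.0 ± 2.3 TPM, and the actin-like Actl6a 14.7 ± 6.2 TPM (SD, n = 3).

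The SMARCD (BAF60) subunits link SWI/SNF to transcription factors and exist as 3 paralogs. Smarcd2 measured 8.59, 12.7 and 9.55 TPM. Smarcd1 measured 6.32, 6.73 and 17.1 TPM, while Smarcd3 stayed at 0.74, 1.00 and 0.90 TPM from 13, 30 and 13 counts. Smarcd1 exceeded Smarcd3 in all 3 libraries, with a log2 ratio of 3.22 ± 0.77 (SD, n = 3). In the table made from the reads the ratio was 1.42. In coding transcripts alone Smarcd3 was at 0 in all 3 libraries. The value of 5.92 there is set by the 0.1 TPM added to both genes and is not a measured ratio. Smarcd2 and Smarcd1 could not be ordered in the gene tables, where their log2 ratio was 0.44, 0.91 and -0.83 in the 3 libraries. In the table made from the reads Smarcd2 was higher in all 3, with a mean of 0.85. The high Smarcd1 value of replicate 3 did not come with more reads, as the counts were 127, 192 and 117. A short coding transcript of 322 nt, Smarcd1-202, took 72.9% of the gene's TPM in replicate 3 and 0 in replicates 1 and 2. Without replicate 3 the log2 ratio of Smarcd2 to Smarcd1 was 0.67 ± 0.33 (SD, n = 2), and without replicate 2 it was -0.20.

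BCL7 proteins are small accessory subunits that contact the nucleosome. Bcl7b measured 5.75, 5.72 and 5.49 TPM from 74 to 95 counts, and Bcl7c 1.04, 1.55 and 0.84 TPM from 18 to 32 counts. Bcl7b was 4.76-fold higher, with separate ranges in all 3 libraries.

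Subunits that set BAF apart from PBAF were at higher levels than most of the core. Dpf2, which encodes a BAF subunit that reads histone acetylation, was the highest SWI/SNF gene at 69.2, 72.7 and 79.9 TPM. Just 11.6% of the Dpf2 level lay in coding transcripts, and Dpf2 averaged 1109 counts where Smarca4 averaged 3047. ARID1A and ARID1B are alternative DNA-binding subunits of BAF. Arid1a measured 27.2, 37.6 and 31.2 TPM and Arid1b 29.8, 29.4 and 33.2 TPM. Their ranges overlapped and the log2 ratio of 0.04 ± 0.27 (SD, n = 3) changed sign between libraries, so no order was found. In coding transcripts alone, however, Arid1a was higher in all 3 libraries, with a log2 ratio of 1.11. Transcripts annotated as retained intron held 67.2% of the Arid1b level and 31.5% of the Arid1a level. Of the PBAF subunits, Arid2 measured 20.5, 24.7 and 23.6 TPM and Pbrm1, which carries a row of bromodomains, averaged 37.6 ± 1.4 TPM (SD, n = 3). Arid1a exceeded Arid2 in every library, at a log2 ratio of 0.47 ± 0.12 (SD, n = 3).

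The ISWI type had a single transcribed ATPase. Smarca5 (SNF2H, chr8:80698507-80739497, minus strand) measured 25.2, 28.9 and 25.9 TPM from 893, 894 and 863 counts. Smarca1 (SNF2L, chrX:47809368-47892974, minus strand) had 0 counts in all 3 libraries, which allows at most 0.0916, 0.0915 and 0.0976 TPM if 3 counts per library are taken as the limit. Smarca5 was therefore at least 265-fold higher in the library with the smallest such ratio. The table made from the reads also lists Smarca1 at 0. Of the promoters printed above, that of Smarca1 has the fewest CG dinucleotides, but its window does not reach the annotated start of the gene.

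The 5 genes of ISWI partner proteins among the 38 were in the top decile, at a median of 57.3 TPM. Baz2b, a bromodomain protein, measured 133.8, 125 and 137 TPM. Its paralog Baz2a, which encodes the TIP5 subunit of the nucleolar silencing complex NoRC, measured 40.3, 58.2 and 45.0 TPM, so that Baz2b was 2.79-fold higher with separate ranges. The log2 ratio of Baz2a to Baz2b was -1.48, and -0.72 in coding transcripts alone. Bptf, the large subunit of NURF, averaged 34.5 ± 3.1 TPM (SD, n = 3). Baz1b, which encodes the WSTF subunit, measured 74.0, 105 and 74.0 TPM and Baz1a, which encodes ACF1, 61.7, 41.2 and 69.0 TPM. Baz1b was higher in all 3 gene-table libraries, but the log2 ratio of 0.57 ± 0.68 (SD, n = 3) was smaller than its spread and dropped to 0.18 without replicate 2. It was -0.53 in the table made from the reads and -0.11 for coding transcripts alone.

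CHD genes had a median of 60.3 TPM over 8 genes, with library medians of 53.2, 75.5 and 52.1 TPM that overlap those of the INO80 type (52.1, 63.5 and 59.5 TPM). Chd2 measured 171, 145 and 177 TPM and was second only to Atrx among all 38 genes. Its closest relative Chd1, which encodes a remodeler that travels with elongating RNA polymerase II, measured 28.7, 23.4 and 22.5 TPM. Chd2 was 6.60-fold higher, with a log2 ratio of 2.72 ± 0.22 (SD, n = 3), which was 1.88 in coding transcripts alone. Of the Chd2 exonic bases, 19.3% also lie in exons of other genes, among them 1810026B05Rik on the same strand, which measured 54.5 ± 6.2 TPM (SD, n = 3), so the level of Chd2 is uncertain to that extent. For the NuRD ATPases, Chd4 (Mi-2β) measured 119, 126 and 149 TPM and Chd3 (Mi-2α) 56.4, 68.8 and 59.2 TPM. Chd4 was 2.14-fold higher and the ranges did not meet.

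The remaining CHD genes form the subfamily with Chd7, whose loss-of-function alleles cause a developmental syndrome in humans. Chd9 measured 83.4, 108 and 98.4 TPM and Chd6 42.2, 49.1 and 40.2 TPM. Chd8, which encodes a regulator of the Wnt pathway, was less even at 49.98, 82.3 and 44.99 TPM, with replicate 2 above the other libraries. As counts scaled to the library total with TMM factors (CPM), it measured 203, 209 and 172 and stood apart less. Chd7 was the lowest at 13.6, 8.44 and 9.89 TPM, with its high value in replicate 1.

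The INO80 type was high throughout, as all 3 genes fell in the top decile. Ino80 measured 41.2, 38.2 and 43.8 TPM. Ep400, the ATPase of the TIP60 acetyltransferase complex, measured 52.1, 63.5 and 59.5 TPM, a log2 ratio of 0.50 ± 0.20 over Ino80 (SD, n = 3). Srcap measured 82.6, 98.7 and 91.5 TPM, a log2 ratio of 1.14 ± 0.20 over Ino80 (SD, n = 3). The Srcap value is uncertain, because 65.0% of its exonic bases, the largest share among the 38 genes, also lie in exons of other genes. The same-strand gene among these, Gm42715, was assigned 2021, 2939 and 2622 counts beside the 6126, 6565 and 5892 of Srcap.

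Atrx (chrX:105797615-105929403, minus strand) had the highest level of all 38 genes, at 289.6, 284 and 267 TPM from 12276, 12403 and 10276 counts. No other gene overlaps its exons. Of its partners, the chaperone gene Daxx measured 142, 106 and 133 TPM and the H3.3 gene H3f3b 217, 228 and 280.2 TPM. The other H3.3 gene, H3f3a, was lower at 27.5, 36.9 and 28.7 TPM. Smarcad1, which encodes a helicase-like ATPase of DNA end resection and heterochromatin upkeep, measured 25.3, 45.4 and 28.9 TPM. Smarcal1, which encodes an annealing helicase of stalled replication forks, measured 11.2, 17.3 and 11.3 TPM. In both genes replicate 2 was above the others in TPM, but not clearly so in CPM, at 55.5, 56.5 and 49.7 CPM for Smarcad1 and 28.8, 31.5 and 26.2 CPM for Smarcal1.

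Placed in a single order of mean TPM, 8 of the 37 neighbouring pairs had library ranges that did not touch. These steps lay mainly at the ends. Atrx stood clear of Chd2, Chd2 of Baz2b and Chd4 of Chd9 at the top, and Smarcd1 of Bcl7b, Bcl7b of Bcl7c and Smarcd3 of Smarca1 at the bottom. Within the middle of the order only Dpf2 over Chd3 and Arid2 over Smarcc1 were separate, so most neighbours there do not differ beyond the spread of the libraries. Of the 14 paralog or partner pairs compared, 12 had the same sign in all 3 libraries. With 3 libraries a two-sided exact sign-flip test cannot go below p = 0.25, so none was run.

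**Figure D2:**
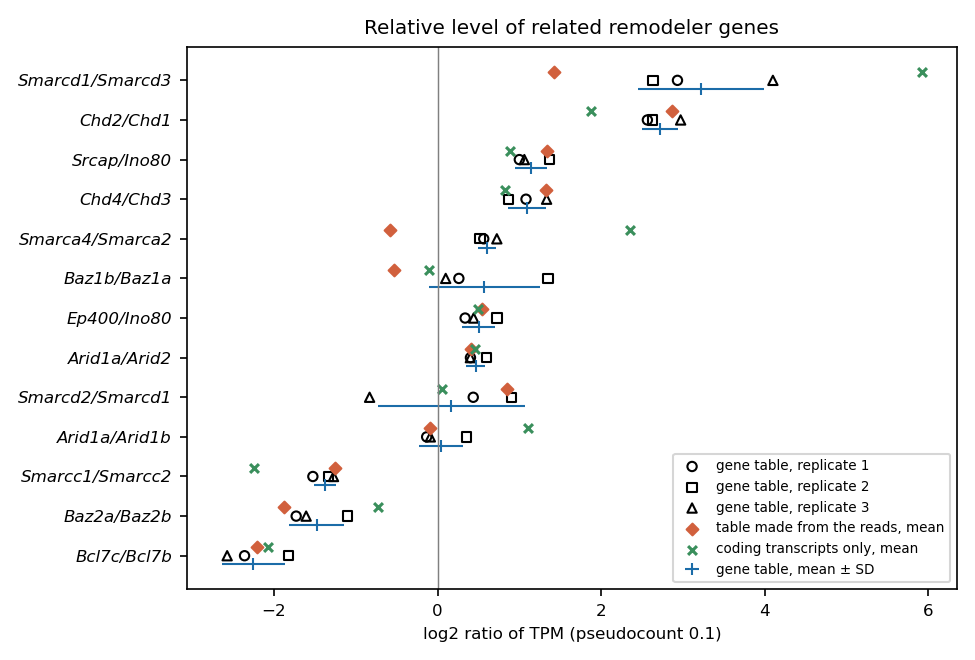
Log2 ratio of TPM for 13 pairs of related genes, with open symbols for the 3 libraries of the gene tables, blue bars for their mean ± SD, diamonds for the mean in the table made from the reads and crosses for coding transcripts alone. Chd2 over Chd1 lies near 2.72 in the gene tables, whereas Smarca4 over Smarca2 moves from 0.60 to -0.58 in the table made from the reads. The cross for Smarcd1 over Smarcd3 is set by the pseudocount, as Smarcd3 was at 0 in coding transcripts.

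The table made from the reads gave a higher level for 29 of the 37 detected remodelers and a level over 1.5 times as high for 12. The same shares over all coding genes were not computed, so these counts do not set the remodelers apart from other genes. The ratio of the tables ranged from 0.806 to 3.55, with a median of 1.20. The level of 27 remodelers moved between the tables by more than the SD of the libraries. Counting the undetected Smarca1, the level of 11 did not. Among the 27 were Dpf2 (131 against 73.9 TPM), Baz1a (105 against 57.3 TPM) and Smarca5 (51.1 against 26.7 TPM). Atrx and Chd2 kept the first places in the table made from the reads, with means of 301 and 263 TPM, but there their ranges overlapped, the lowest Atrx library lying at 263 TPM and the highest Chd2 library at 296 TPM. Below them Chd9 (165 TPM) stood above Baz2b (155 TPM), and Dpf2 (131 TPM) above Chd4 (126 TPM), the reverse of the gene tables.

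Annotated retained-intron transcripts, which keep intronic sequence next to exons, held part of the level of most remodelers. In the chromatin fraction, reads of transcripts not yet spliced cannot be told apart from reads of retained-intron transcripts. The shares below therefore describe how reads were assigned and not how much finished RNA keeps an intron. The share of TPM in such transcripts was computed for the 30 detected remodelers that have both coding and retained-intron transcripts and a mean of at least 1 TPM. Its median was 32.3%, against 41.8% over all 6285 such coding genes. Retained-intron transcripts held over 50% of the level in 6 of the 30 genes, against 36.5% of all such genes. In the table made from the reads it was 10 of the same 30 genes, against 39.6% of all such genes. The highest shares were 71.3%, 71.1% and 69.7% for Dpf2, 66.3%, 71.6% and 65.7% for Smarca5 and 70.5%, 63.6% and 67.7% for Arid1b. Actl6a followed with 62.5% ± 8.6 and Smarcc1 with 54.8% ± 2.7 (SD, n = 3), and Baz1b lay at the limit with 50.1% ± 6.0 (SD, n = 3). In the table made from the reads the order was another, with Smarca5 at 86.3%, Smarcal1 at 72.2% (34.7% in the main table), Chd8 at 71.4% and Dpf2 at 57.4%. At the low end of the main table were Baz1a with 1.7% ± 1.7, Pbrm1 with 15.3% ± 2.3 and Smarcc2 with 16.3% ± 3.5 (SD, n = 3). Smarcd3, too low to enter the set, had all of its TPM in retained-intron transcripts. Its exons overlap those of the opposite-strand gene Chpf2 over 48.2% of their bases, and Chpf2 had 741 counts on average where Smarcd3 had 19. Whether the counting used strand is not given in the sources used here, so reads of the 2 genes may not be told apart.

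The exon borders that these transcripts read through are shown for 4 genes with a majority in retained-intron transcripts, from the leading such transcript of each in GENCODE M21. Each line has 15 exonic and 25 intronic bases, 5′ to 3′ on the gene's strand, with the GT that opens the intron of the coding transcripts in capitals. The windows lie at chr19:5905364-5905403 (Dpf2-207, minus strand), chr8:80725965-80726004 (Smarca5-205, minus strand), chr17:5127010-5127049 (Arid1b-205, plus strand) and chr9:110213629-110213668 (Smarcc1-208, plus strand).
Dpf2-207: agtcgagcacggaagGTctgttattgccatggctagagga
Smarca5-205: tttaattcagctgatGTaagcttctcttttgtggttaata
Arid1b-205: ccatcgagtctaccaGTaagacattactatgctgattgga
Smarcc1-208: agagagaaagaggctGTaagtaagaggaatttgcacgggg
Each of the 4 transcripts runs past its GT into the intron and ends there, after 263 bases in Dpf2-207, 408 in Smarca5-205, 616 in Arid1b-205 and 220 in Smarcc1-208. The Arid1b intron is 115803 bases long, so the 616 bases are its beginning only. Arid1b-205 alone held 56.9%, 52.3% and 60.0% of the Arid1b level, the most of any of these 4 transcripts. Dpf2-207 held 27.1% ± 1.6 of its gene's level, Smarcc1-208 28.7% ± 6.2 and Smarca5-205 20.9% ± 4.9 (SD, n = 3).

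**Figure D3:**
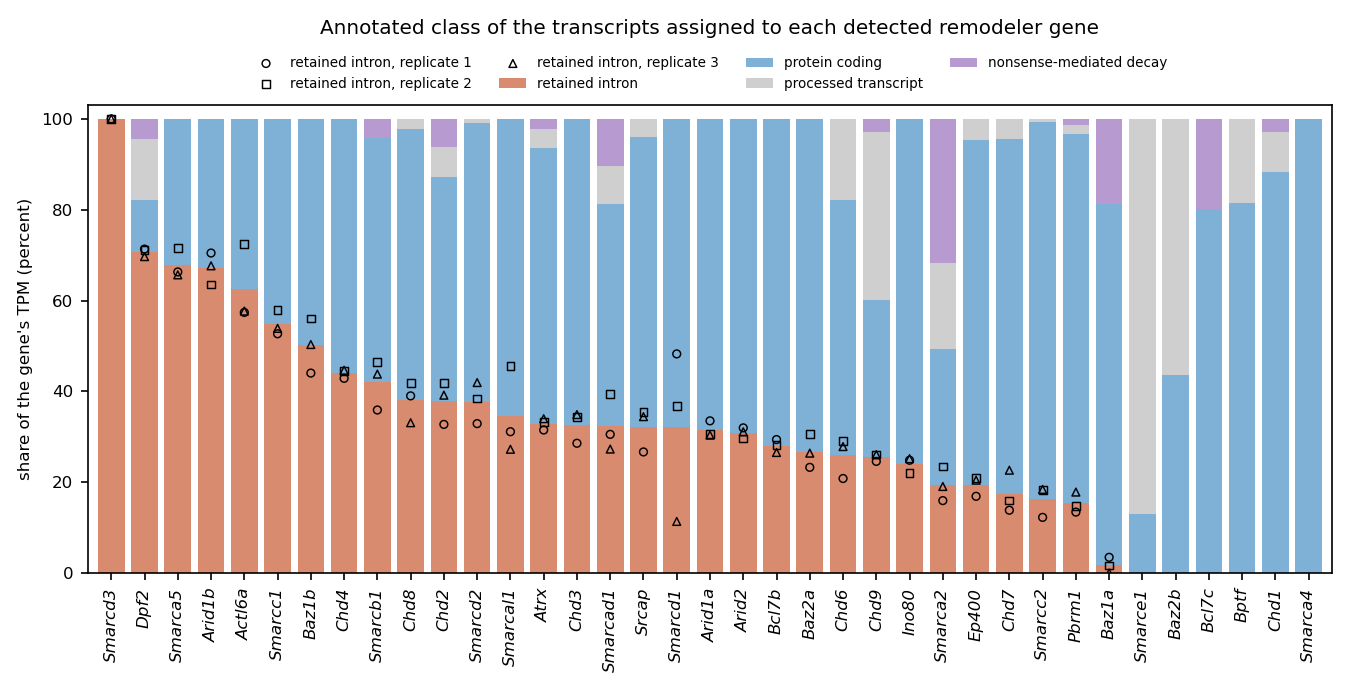
Mean share of each detected gene's TPM by annotated transcript class in percent, stacked, with open symbols for the retained-intron share in each of the 3 libraries. Dpf2, Smarca5 and Arid1b have the highest retained-intron shares apart from the barely detected Smarcd3, and Smarcd1 has the widest scatter between libraries.

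Coding transcripts held a median of 61.3% of the remodelers' level and under 50% in 13 genes. The same values over all coding genes were not computed, so neither is a trait of the remodelers. Smarca4 was the only detected gene with all of it in coding transcripts. Smarce1 and Baz2b have no annotated retained-intron transcript, yet 87.0% and 56.4% of their level lay in non-coding processed transcripts. Among the transcribed ATPases the leading transcript was coding for all but Smarca2, where it was marked for decay, and Chd9, where the 759 nt processed transcript Chd9-206 led with 21.1% ± 1.0 (SD, n = 3). In several genes the leading coding transcript was a fragment, such as the 430 nt Chd3-207 with 25.2% ± 2.3 and the 602 nt Smarcad1-212 with 26.7% ± 5.9 (SD, n = 3). The leading transcripts depended on how reads were assigned. In the table made from the reads, the retained-intron transcript Srcap-203 led Srcap with 17.6%, against 12.2% for the coding Srcap-214. The coding Smarca5-201 had 13.7% there, below the retained-intron Smarca5-206 with 20.1%, and Chd9-206 did not lead.

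Differences between the libraries were set against counting error. Counts were rounded and scaled by TMM (a normalisation that equalises the bulk of genes), and each gene was tested for variation beyond counting error with a chi-square test over the 14320 genes with at least 10 counts. With Benjamini-Hochberg adjustment over all of them, 30 of the 37 tested remodelers passed 0.05, against 55.0% of all genes tested and 57.7% of the coding ones. The test sets separate samples against counting noise alone and treats reads as independent molecules, which reads without molecular identifiers need not be. Genes with many counts therefore pass it readily. At 1000 counts or more 23 of 24 remodelers passed, against 90.7% of coding genes with that many counts. The median biological coefficient of variation (edgeR) was 0.179 for the remodelers and 0.209 for detected coding genes. At 1000 counts or more it was 0.178 and 0.179. These are tagwise values, which edgeR draws toward the trend over all genes tested. With 3 libraries they are therefore not each gene's own spread, and likeness between groups is partly built in.

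The highest library exceeded the lowest by more than 1.5-fold in 5 of the 37 remodelers, against 37.1% of detected coding genes. At 1000 counts or more it did so in 2 of 24, against 20.5% of coding genes, and the median fold was 1.26 for both. Chd7 measured 65.5, 32.9 and 49.7 CPM, a fold of 1.99 with an adjusted p of 4.2e-38 (chi-square test against counting error). Baz1a measured 176, 95 and 157 CPM, a fold of 1.85 with an adjusted p of 1.2e-92. Chd1 measured 119, 75.4 and 92.5 CPM, a fold of 1.58 with an adjusted p of 5.5e-34. In these 3 genes replicate 2 was the lowest library. Actl6a, at 12.8, 16.5 and 10.2 CPM, had a fold of 1.62 and an adjusted p of 1.4e-05, and there replicate 2 was the highest. Smarcd3 had a fold of 1.88 at 0.95, 1.62 and 0.86 CPM, which did not pass the test at so few counts (adjusted p of 0.12). The largest coefficients of variation were 0.313 for Smarcd3, 0.260 for Bcl7c and 0.233 for Chd7, and the smallest were 0.168 for Smarcad1 and 0.169 for both Arid1a and Smarce1. Arid1a was almost level at 148, 146 and 149.5 CPM, with an adjusted p of 0.75 in the chi-square test, so its coefficient does not give its own spread.

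On the CPM scale 23 of the 37 detected remodelers were highest in replicate 1, 11 in replicate 2 and 3 in replicate 3. Over detected coding genes the shares were 29.1%, 40.9% and 30.0%. Replicate 2 was the lowest library in 18 remodelers, against 36.1% of detected coding genes. The share highest in replicate 1 was 49.0% of coding genes with at least 1000 counts and 42.6% of those spanning at least 50 kb. Of the 24 remodelers with at least 1000 counts 19 were highest there, and of the 21 spanning at least 50 kb 18 were. Atrx, at 897, 671 and 664 CPM, and Chd2, at 520, 356 and 472 CPM, are examples. The count depended on the scale. In the deposited TPM 4 remodelers were highest in replicate 1, and coding genes held 27.5%, 30.8% and 32.0% of the total in the 3 libraries. The share of all coding genes highest in replicate 1 was not computed for TPM. Replicate 1 had the largest RNA input and the lowest depth, and the part of these in the pattern was not tested.

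**Figure D4:**
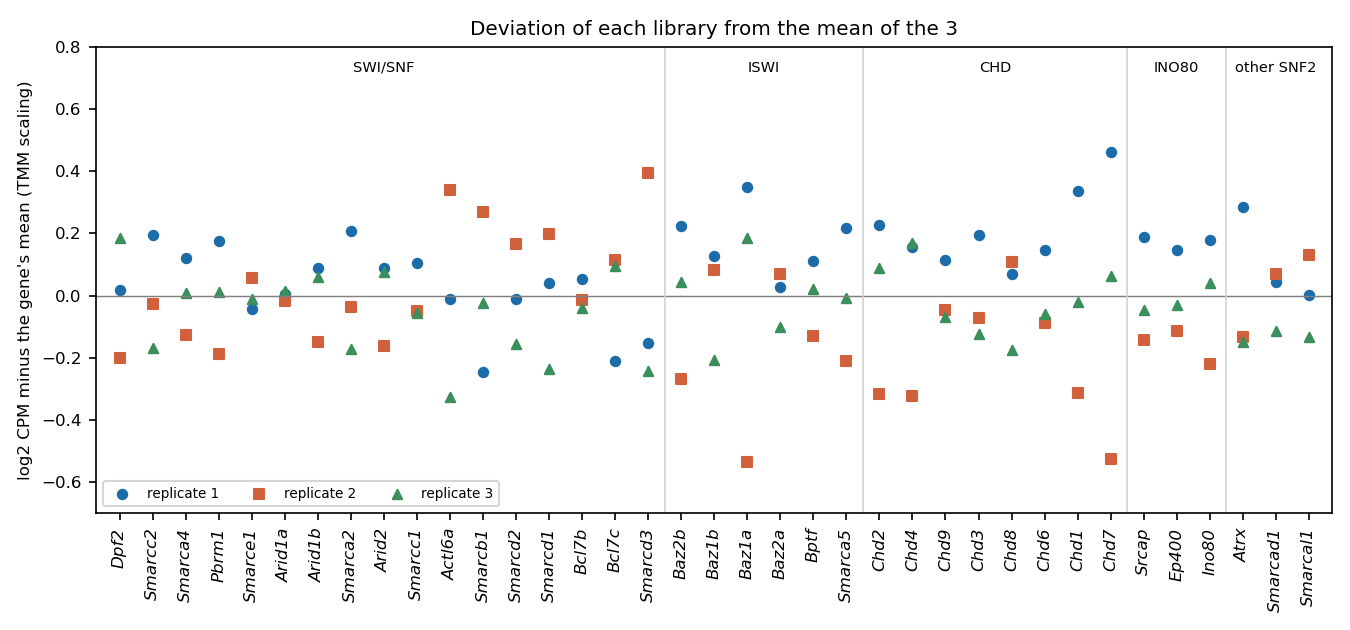
Log2 TMM-scaled CPM of each library minus the gene's mean, for the 37 detected remodelers grouped by family. Replicate 1 is the highest library in 23 genes and replicate 2 lies lowest in Chd7, Baz1a, Chd1, Chd2 and Chd4.

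Other genes of the same complexes were mostly present at lower levels. Of 75 further subunits and related ATPases, 70 were detected, with a median of 9.10 TPM. Those not detected were 5 SWI/SNF genes, namely Actl6b, Dpf1 and Dpf3, which encode neuronal or muscle variants of subunits, and Bcl11a and Bcl11b, which encode factors of lymphoid and neural cells. Actl6b and Bcl11b had 0 counts in all 3 libraries of the gene tables. The absence depended on the table, since the table made from the reads gave them 41.4 and 39.2 counts on average and detected 12 of the 13 other SWI/SNF subunits. The gene tables detected 8 of the 13, led by the bromodomain genes Brd7 at 33.8 ± 6.5 TPM and Brd9 at 26.7 ± 5.6 TPM (SD, n = 3). All 7 other ISWI subunits were detected, led by Rsf1 at 20.7 TPM and Hmgxb4 at 12.5 TPM. All 11 NuRD partners were detected, led by the deacetylase gene Hdac1 at 94.6 ± 11.6 TPM (SD, n = 3) and the methyl-CpG-binding Mbd2 at 28.9 ± 1.6 TPM (SD, n = 3). All 28 other subunits of the INO80, SRCAP and TIP60 complexes were detected, led by Morf4l1 at 99.2 TPM and the scaffold gene Trrap at 78.4 TPM. All 13 other SNF2 ATPases were detected, led by Btaf1 at 92.5 TPM and Hltf at 20.4 TPM. In the INO80 and ISWI types the catalytic and large scaffold genes, apart from the undetected Smarca1, were thus above most of their partners. The median of the other subunits was 9.13 and 8.17 TPM.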

How the data were processed

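Chromatin-fraction total RNA-seq was available for 3 libraries in 1 group. Per the file headers, the authors deposited expected counts and TPM per gene and per transcript, in the RSEM column layout, made from a transcriptome alignment to mm10 with GENCODE M21. A further deposited transcript table, in the kallisto layout and made directly from the reads, gives estimated counts and TPM. It was summed to genes as the alternative. Which programs and versions were run, and whether strand was used, is not given in the sources used here.

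All 38 genes and the lists were chosen with earlier results of these data known. Rows with no gene name (26345) stayed out. Levels are deposited TPM, ranked as log2(TPM + 1) among coding genes. Ratios used log2(TPM + 0.1) per library, with ± as SD. Rounding gave whole counts for edgeR 4.0.16 (TMM, intercept-only dispersion) and for the chi-square test against Poisson sampling, over genes averaging 10 or more counts. The largest library factor was 1.07. That test was also run on counts for 14320 genes simulated with Poisson error alone, where changed genes were raised in replicate 1 only. It recovered 59% of 100 genes raised 1.5-fold and 88% of 100 raised 2-fold, with 8 false calls. As Poisson error is what the test assumes, the 8 do not bear on false calls in the real libraries. A count of 0 allows 3 counts, or 0.217, 0.174 and 0.181 CPM in replicates 1, 2 and 3, for counting error only, since these reads carry no molecular identifiers. The deposited standard deviation of sampled counts was not used. A further marker list is not reported here.

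Values per library were given for the ATPases and the pairs, counts and the 2 highest genes for other lists, the 5 highest and 3 lowest retained-intron shares and the 3 largest and smallest coefficients of variation. The count of genes highest in replicate 1, its backgrounds and alternatives, the promoters, motifs, splice-site windows and exon overlaps were chosen after seeing the data, as were the alternatives for the retained-intron majority and the genes named as examples outside the rule. Alternatives were the table made from the reads, other minimums, scalings (DESeq2 1.42.0 size factors, total counts, CPM), a pseudocount of 1, coding transcripts only and leaving out each replicate.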

Additional observations from a re-analysis of the deposited data

How the results depend on the processing

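The number of detected remodelers was 37 in the table made from the reads, at a minimum mean of 1 count and without any 1 replicate, and 34 at a minimum of 100 counts. The median percentile of 91.4 was 90.8 in the table made from the reads, 94.2 on the CPM scale and 83.0 against detected coding genes only, and 91.4 without each replicate. The count of 23 in the top decile was 9 against detected coding genes only, where the bar is higher by construction, and between 22 and 24 otherwise. The 30 genes varying beyond counting error were 29 with DESeq2 size factors and 33 with total count scaling. The shares of all genes tested were 54.7% and 60.0% there, beside 55.0% in the main setting. With no minimum count the number was 27 (32.4% of all genes tested), and in the table made from the reads 35 (55.1%). Without replicate 1, 2 or 3 it was 27, 22 and 24, against 43.8%, 27.9% and 41.7% of all genes tested. The number of the 14 pairs with 1 sign in every library used was 12 or 13 under every alternative run, but not the same pairs: the mixed ones were Arid1a/Arid1b and Baz1b/Baz1a in the table made from the reads and Smarcd2/Smarcd1 and Baz1b/Baz1a in coding transcripts. Smarca4/Smarca2 reversed to -0.58 and Baz1b/Baz1a to -0.53 in the table made from the reads, and Baz1b/Baz1a to -0.11 in coding transcripts, and the cause was not tested. The median retained-intron share was 33.2% in the table made from the reads, 32.3% at a minimum of 5 TPM and 31.05% to 33.5% without each replicate, but the genes with a majority numbered 10 of the same genes in the table made from the reads, 11 there with Smarcd3, which passes the minimum level in that table, and 5 without replicate 2. In coding transcripts 8 of 13 ratios moved by more than their SD without a reversal. Among these was Smarcd1/Smarcd3, whose ratio there is set by the pseudocount. The 23 genes highest in replicate 1 were 23 with DESeq2 size factors, 22 with total count scaling, 24 in the table made from the reads and 4 in TPM. Shares of all coding genes under these alternatives were not computed. No paired analysis was possible because there is 1 group. Depth limits the values of Smarcd3, Bcl7c and Bcl7b, each under 100 counts on average.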
